A study of Mus musculus with 12 samples.

Results

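The 10 genes described here encode proteins that write, copy and remove DNA methylation and 3 proteins of the Polycomb system. They are Dnmt1, Dnmt3a, Dnmt3b, Tet1, Tet2, Tet3, Uhrf1, Ezh1, Ezh2 and Bmi1, taken by name. The choice uses no measured value of its own, though the genes were proposed with earlier results of these data known. All 10 were found, through their Ensembl identifiers, among the 32285 identifiers of a count table from hematopoietic stem cells (HSCs) and the 56980 of one from macrophages, and all 10 passed the filter on low counts in both. The RNA came from cells sorted from mouse fetal liver at E14.5, the embryonic stage at which the liver is the main blood-forming organ.

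Each sort had 3 libraries without and 3 libraries with Vav-Cre, a transgene that expresses the recombinase under a promoter active across blood cells. All embryos carried floxed alleles of Jag1, the gene of a Notch ligand, so the Cre negative controls that the labels call WT were floxed as well. HSC libraries were each made from 2000 live cells that were CD45+, negative for lineage markers, cKit+, Sca1+, CD48- and CD150+, from C57BL/6 embryos. Macrophage libraries were made from 1000 to 3000 CD169+ cells. The labels do not say which libraries came from separate embryos, so p-values measure the spread between these libraries, which may be technical. Below, 3 values of a group stand in the order of the replicate numbers in the labels.

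DNA methylation is laid down on unmethylated DNA by Dnmt3a and Dnmt3b and copied to the new strand after replication by Dnmt1, which Uhrf1 brings to half-methylated sites. Tet1, Tet2 and Tet3 oxidize methylated cytosine, the first step of its removal. In Polycomb repressive complex 2 (PRC2), Ezh1 or Ezh2 adds methyl groups to a lysine of histone H3, and in complex 1 (PRC1) Bmi1 works beside the ubiquitin ligases Ring1 and Rnf2 on histone H2A. In blood, Ezh2 is known as the main PRC2 enzyme of fetal stem cells and Ezh1 as one with a larger part in the adult, Bmi1 is known for its role in stem cell self-renewal, and Dnmt3a and Tet2 are known for clonal growth of adult stem cells that lose them.

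Depth was 51982064 to 77463770 reads per HSC library, 17230019 to 24658205 per macrophage library without Cre and 2602934 to 5366990 per macrophage library with it. Levels are given as CPM, counts scaled to a common library size, with trimmed mean of M values (TMM) factors within each table. A count of 3 was worth 0.0386 to 0.0561 CPM in HSC libraries, 0.138 to 0.174 CPM in macrophage libraries without Cre and 0.522 to 1.08 CPM in those with it, which covers counting error only. Jag1, the targeted gene, measured 6.53, 6.87 and 1.16 CPM in Cre negative HSC libraries and 10.5, 0 and 19.5 CPM in the ones with the Cre label, so it did not separate the HSC groups (exact two-sided permutation p = 0.8). In macrophages it measured 52.6, 21.1 and 26.3 CPM without Cre and 0, 10.6 and 6.79 CPM with it, groups that did not overlap (exact two-sided permutation p = 0.1, the smallest that 3 against 3 can give). The labels do not give the floxed exons, and reads from the rest of the gene do not test the deletion. HSC groups are therefore named as labelled. The stem cell markers Kit (40.1 to 183.5 CPM) and Ly6a (127 to 190 CPM) were present in all 6 HSC libraries. The gate gene of the macrophages, Siglec1, measured 16.2 to 117.5 CPM in that sort. Adgre1, another macrophage marker, measured 22.3 to 403 CPM there and 32.1 to 127 CPM in HSC libraries. Reads of 12 of 12 endothelial markers were in all 12 libraries: Stab2 measured 567 to 1569 CPM in HSC libraries and 2455 to 5121 CPM in macrophage libraries. Lyve1 measured 1679 to 4262 CPM in HSC libraries, above Kit and Ly6a in each, and 666 to 1206 CPM in macrophage libraries. The summed share of the 12 endothelial markers in HSC reads was 0.5155% to 0.951% without Cre and 0.546% to 0.791% with the Cre label. In macrophages it was 0.804% to 1.62% and 1.34% to 1.665%. The 10 hepatoblast markers took 0.0487% to 0.396% of Cre negative and 0.0450% to 0.0790% of Cre positive macrophage reads. In HSC libraries they took 0.170% to 0.357% without Cre and 0.1985% to 0.286% with the Cre label. Alb measured 77.1 to 1707 CPM in macrophage and 178 to 505 CPM in HSC libraries, and Afp 20.2 to 214 and 225 to 854 CPM. The 14 macrophage markers took 0.0688% to 0.375% of macrophage reads without Cre and 0.0823% to 0.261% with it, and 0.141% to 0.164% and 0.0828% to 0.217% of HSC reads. The 12 HSC markers took 0.1001% to 0.238% and 0.166% to 0.202% of HSC reads, and 0.0530% to 0.1003% and 0.1046% to 0.113% of macrophage reads, where the groups did not overlap. The 10 stellate and mesenchymal markers, 7 of them with reads in all 6 libraries of each sort, took 0.0196% to 0.171% of macrophage reads without Cre and 0.0101% to 0.0121% with it, again with no overlap. The 10 neutrophil markers took 0.118% to 0.178% of HSC reads without Cre and 0.0925% to 0.399% with the Cre label. Without Cre this lay inside the range of the HSC markers, and with the Cre label it reached both below and above theirs. S100a8 measured 131 to 664 CPM and S100a9 142 to 789 CPM in HSC libraries. In macrophages the neutrophil list took at most 0.0125%. The erythroid list took at most 0.0312%, the megakaryocyte list 0.0609% and the lymphoid list 0.0037% in any library, and Gp6 and Cd3e had no read in any HSC library. The part of other cells in the levels below was not tested, and in bulk RNA fewer cells of a type and less RNA per cell cannot be told apart.

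None of the 10 genes passed the threshold between Cre positive and Cre negative libraries in either sort (edgeR quasi-likelihood test, Benjamini-Hochberg adjusted p under 0.05 over all genes). In HSC libraries their adjusted p was 0.806 to 0.996 and in macrophages it was 1, and 0 of 10 had an unadjusted p under 0.05 in either sort. The background was the same: 0% of the 13962 genes tested in HSC libraries and 0% of the 17806 in macrophages passed with edgeR, with 6.39% and 5.42% at an unadjusted p under 0.05. DESeq2, run as an alternative, called 129 genes in HSC libraries and 54 in macrophages, none of the 10 genes among them. In HSC libraries 8 of the 10 fold changes were above 0, with a median of 0.15 on the log2 scale, where the median of all genes was -0.00 and 49.7% were above 0. In macrophages the median of the 10 was -0.17 against -0.16 for all genes, with 5 of the 10 above that median and 5 below it. Another scaling moved the macrophage median of all genes to 0.05, so macrophage changes are read relative to it.

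**Figure D1:**
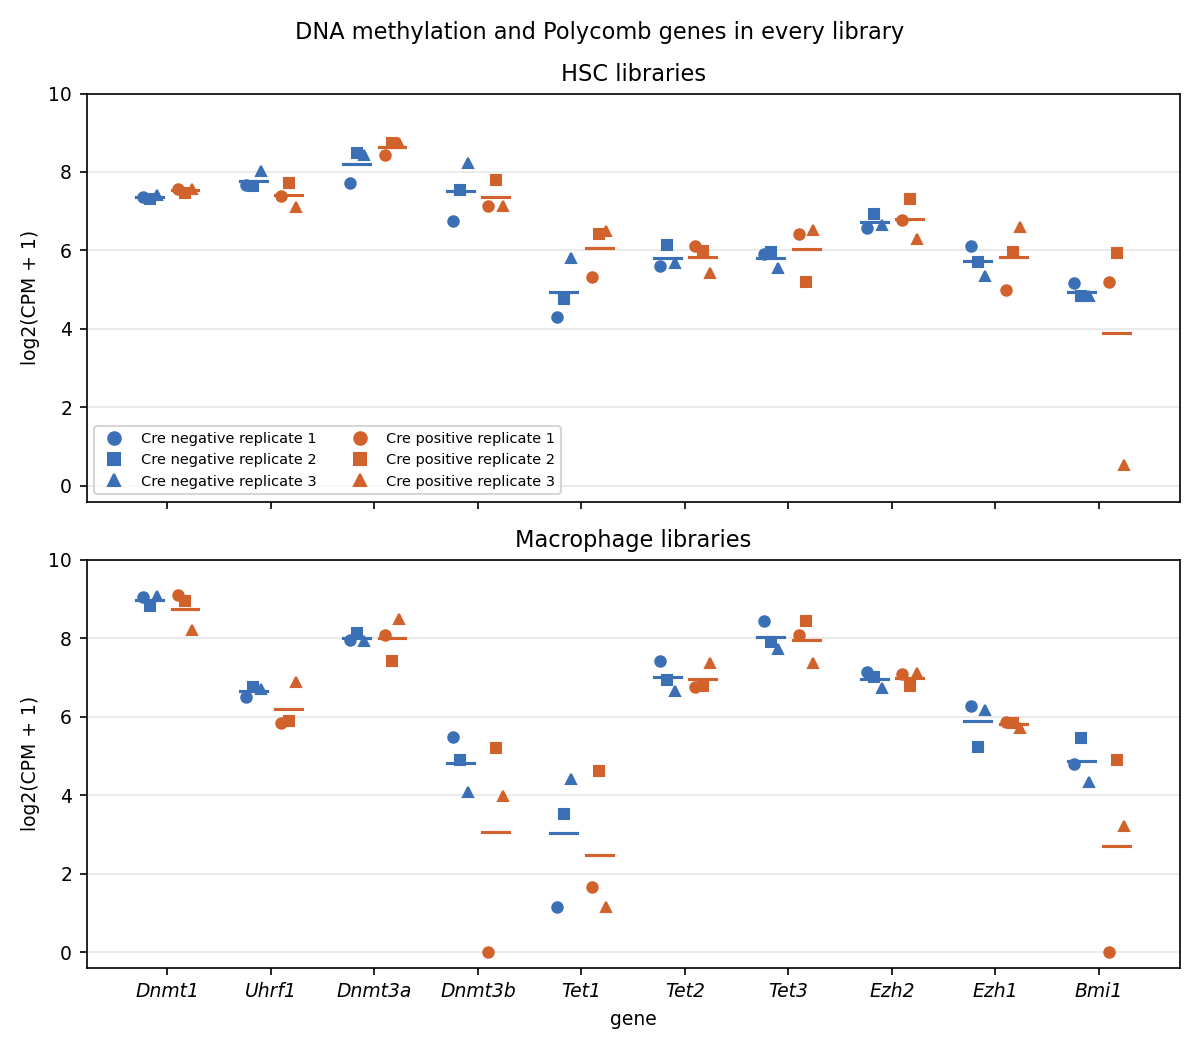
Levels of the 10 genes as log2(CPM + 1) in each of the 12 libraries, HSC libraries above and macrophage libraries below, with colour for genotype, shape for replicate number and short lines at the group means of these log values. The points of the 2 genotypes overlap for every gene in both sorts except Dnmt1 in HSC libraries, and Bmi1 lies far below the other libraries in HSC Cre positive replicate 3.

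Dnmt1 (ENSMUSG00000004099, chr9:20907209-20959888 on GRCm38, minus strand), the maintenance enzyme, had the steadiest level of the 10 genes in HSC libraries. It measured 164, 158 and 169.5 CPM without Cre and 188, 177 and 187 CPM with the Cre label. All 3 labelled Cre positive libraries lay above all 3 negative ones, the only one of the 10 genes whose groups did not overlap. Such a lack of overlap, in either direction, was found for 15.7% of all genes tested in HSC libraries, 889 of them higher and 1303 lower. The log2 fold change was 0.17 ± 0.18 (SE), with a 95% interval of -0.26 to 0.59 and an adjusted p of 0.981 by edgeR. In macrophages Dnmt1 measured 531, 452 and 540 CPM without Cre and 546, 490 and 294 CPM with it. The groups overlapped, with Cre positive replicate 3 below the other 5 libraries and a log2 fold change of -0.19 ± 0.32 (95% interval -0.86 to 0.47). There, 14.1% of all genes tested had groups that did not overlap, and 0 of the 10 genes did. Of all macrophage genes, 405 were higher and 2107 lower without overlap in the Cre positive libraries. At an unadjusted p under 0.05 by edgeR, 91 were higher and 874 lower.

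Uhrf1 (ENSMUSG00000001228, chr17:56303321-56323486, plus strand), the partner that recognizes half-methylated DNA, measured 201, 200.2 and 259 CPM in Cre negative HSC libraries and 165.5, 210 and 137 CPM in the ones with the Cre label. Replicates 1 and 3 with the Cre label lay below all negative libraries and replicate 2 among them. Its log2 fold change was -0.37 ± 0.23 (95% interval -0.91 to 0.18). Macrophage libraries held 89.2, 107 and 103 CPM without Cre and 55.8, 57.8 and 118 CPM with it, so Cre positive libraries were both the lowest and the highest. With a log2 fold change of -0.37 ± 0.48 (95% interval -1.39 to 0.65), the macrophage groups were not separated either. Per kilobase of exon, Dnmt1 over Uhrf1 was 0.378 to 0.471 in Cre negative HSC libraries and 0.487 to 0.791 in the ones with the Cre label, which do not overlap. In macrophages the same ratio was 1.44 to 5.65, with a median of 3.23. These ratios were chosen after their values were seen and carry no test. Among single genes, 15.7% of those tested in HSC libraries had groups that did not overlap, and the share among ratios was not counted. The HSC groups overlapped for the other ratios per kilobase of merged exon given below.

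Dnmt1, Uhrf1 and Ezh2 are textbook genes of cycling cells, so the summed share of 28 genes of the G1/S transition is given beside them. It was 0.473% to 0.502% of reads in Cre negative HSC libraries and 0.3675% to 0.432% in the ones with the Cre label, which did not overlap, and 0.187% to 0.198% against 0.150% to 0.198% in macrophages. In HSC libraries 20 of these 28 genes had fold changes below 0, with a median of -0.36, and 0 passed the threshold. Groups did not overlap for 5 of the 28, all lower, against 15.7% of all genes tested in either direction. Mcm5, a subunit of the replicative helicase, measured 338 ± 35.3 CPM (SD, n = 3) without Cre and 207 ± 19.5 CPM with the Cre label (unadjusted p = 0.00533, adjusted p = 0.689 by edgeR). Slbp, the histone messenger binding protein, measured 378 ± 41.5 and 285 ± 39.6 CPM, and the helicase subunit Mcm3 463 ± 27.5 and 360 ± 70.0 CPM. In macrophages 11 of 27 tested genes lay above the median of all genes. Pcna, the replication clamp, measured 84.4 ± 33.0 CPM without Cre and 32.1 ± 26.6 CPM with it (adjusted p = 0.954 by edgeR). Rpa2, of the single-strand binding complex, measured 36.2 ± 4.72 and 7.31 ± 6.39 CPM, and Mcm2 104 ± 43.7 and 56.5 ± 32.7 CPM. The part of cell cycle state in the levels of Dnmt1, Uhrf1 and Ezh2 was not tested.

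Dnmt3a (ENSMUSG00000020661, chr12:3806007-3914443, plus strand) is the main de novo enzyme of adult blood cells. It measured 211, 355 and 342 CPM in Cre negative HSC libraries and 345, 422 and 428 CPM in the ones with the Cre label. Cre negative replicate 1 was the lowest, and 1 labelled Cre positive library lay among the negative ones. Its log2 fold change was 0.40 ± 0.24 (95% interval -0.16 to 0.96, adjusted p = 0.876 by edgeR), and 0.19 without Cre negative replicate 1. Macrophage levels were 247.5, 279 and 244 CPM without Cre and 271, 171 and 361 CPM with it. The lowest and the highest library were both Cre positive, and the log2 fold change was 0.06 ± 0.35 (95% interval -0.69 to 0.81).

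Dnmt3b (ENSMUSG00000027478, chr2:153649450-153687730, plus strand), the other de novo enzyme, best known from the early embryo, measured 107, 187 and 298 CPM in Cre negative HSC libraries and 139, 221 and 138.5 CPM in the ones with the Cre label. The spread within the Cre negative group covered every labelled Cre positive library, and the log2 fold change was -0.25 ± 0.39 (95% interval -1.14 to 0.65). In macrophages it measured 43.5, 28.8 and 15.9 CPM without Cre and 0, 36.1 and 14.8 CPM with it. The value of 0 stands for no read in Cre positive replicate 1, the shallowest library, where 3 reads would have been 1.08 CPM. With that library the log2 fold change was -0.79 ± 1.32 (95% interval -3.56 to 1.985), -0.27 without it and -2.01 without Cre positive replicate 2.

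Per kilobase of merged exon, the make-up of the methyltransferase family differed between the tables. In HSC libraries Dnmt3b took 43.2 ± 8.52% (SD, n = 6) of the summed level per kilobase of the 3 enzymes, Dnmt1 30.4 ± 6.41% and Dnmt3a 26.4 ± 4.46%. In macrophage libraries Dnmt1 took 75.4 ± 7.38%, Dnmt3a 19.3 ± 7.51% and Dnmt3b 5.34 ± 3.385%. With these lengths Dnmt3a over Dnmt3b was 0.352 to 0.949 in the 6 HSC libraries. In 5 macrophage libraries it was 1.46 to 7.49, and at least 77.0 in Cre positive replicate 1, taking 3 reads for the absent Dnmt3b. The order in HSC libraries depends on the length used: with main coding transcripts, an alternative added after the data were seen, the ratio was 0.511 to 1.38 there, above 1 in 2 of 6 libraries (replicates 1 and 3 with the Cre label), and the mean shares were 30.2% for Dnmt1, 32.7% for Dnmt3a and 37.1% for Dnmt3b. In macrophages the ratio was then at least 2.115 in each library. Dnmt1 over Dnmt3a was 0.9455 to 1.76 in HSC libraries and 1.835 to 6.45 in macrophages with merged exons, and 0.756 to 1.405 and 1.47 to 5.16 with main transcripts. Sort and the processing of the tables go together, so the cell type and the processing cannot be told apart in these differences, and no test was made of them.

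Tet1 (ENSMUSG00000047146, chr10:62804570-62908996, minus strand), an oxidase prominent in germ cells and pluripotent cells, gave the largest fold change of the 10 genes in HSC libraries. It measured 18.9, 26.0 and 54.6 CPM without Cre and 38.7, 84.0 and 89.8 CPM with the Cre label. Replicate 1 with the label lay below Cre negative replicate 3, so the groups overlapped. The log2 fold change was 1.10 ± 0.51 (95% interval -0.09 to 2.28), with an unadjusted p of 0.0649 and an adjusted p of 0.806 by edgeR. It was 1.655 without Cre negative replicate 3 (unadjusted p = 0.0149, adjusted p = 0.744 by edgeR) and 0.81 without Cre negative replicate 1. The unadjusted p was also under 0.05 without replicate 1 with the Cre label (0.0294), with DESeq2 (0.0479) and without the filter on low counts (0.0469), with adjusted p of 0.414 to 0.577. In macrophages Tet1 was on average the lowest of the 10 genes, though not in each library, and the least even. It measured 1.22, 10.5 and 20.2 CPM without Cre (21, 224 and 438 reads) and 2.16, 23.6 and 1.22 CPM with it (6, 127 and 7 reads). Both genotypes held libraries near the lowest level and libraries more than 10 times above it, and the 95% interval of the log2 fold change ran from -4.10 to 3.63.

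Tet2 (ENSMUSG00000040943, chr3:133463679-133545139, minus strand) is the oxidase most often tied to blood stem cells. It measured 47.8 to 69.9 CPM in Cre negative HSC libraries and 42.3 to 68.5 CPM in the ones with the Cre label, with a log2 fold change of 0.04 ± 0.33 (95% interval -0.72 to 0.80). In macrophages it measured 100.4 to 171 CPM without Cre and 107 to 163 CPM with it, with a log2 fold change of -0.05 ± 0.42 (95% interval -0.94 to 0.83). Tet3 (ENSMUSG00000034832, chr6:83362373-83459084, minus strand), the oxidase of the zygote, which many adult tissues also use, measured 46.0 to 61.3 CPM in Cre negative HSC libraries and 84.6, 35.8 and 90.2 CPM in the ones with the Cre label. Labelled Cre positive libraries held both ends of its range, and the log2 fold change was 0.34 ± 0.39 (95% interval -0.58 to 1.25). In macrophages Tet3 measured 211 to 345 CPM without Cre and 165.5 to 346 CPM with it, with a log2 fold change of -0.03 ± 0.37 (95% interval -0.80 to 0.75).

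How the Tet family was shared in HSC libraries depends on the length used. Per kilobase of merged exon, Tet1, Tet2 and Tet3 took 30.65 ± 13.9%, 33.2 ± 8.39% and 36.2 ± 10.2% (SD, n = 6) of their sum in HSC libraries. In macrophage libraries they took 2.703 ± 2.74%, 32.5 ± 9.015% and 64.8 ± 7.885%. With main transcript lengths, an alternative added after the data were seen, the shares were 17.5 ± 9.54%, 31.5 ± 7.33% and 50.9 ± 10.7% in HSC libraries and 1.185 ± 1.21%, 24.9 ± 7.68% and 73.9 ± 7.18% in macrophages. Tet3 thus took the most on average in both sorts by either length, by little in HSC libraries with merged exons. Tet3 over Tet2 was above 1 in all 6 macrophage libraries (1.02 to 3.215 with merged exons, 1.54 to 4.825 with main transcripts), and in HSC libraries it was 0.583 to 2.15 and 0.875 to 3.235. Tet2 over Tet1 was 4.22 to 129 in macrophages and 0.432 to 2.47 in HSC libraries with merged exons, and with main transcripts it was above 1 in 5 of 6 HSC libraries.

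**Figure D2:**
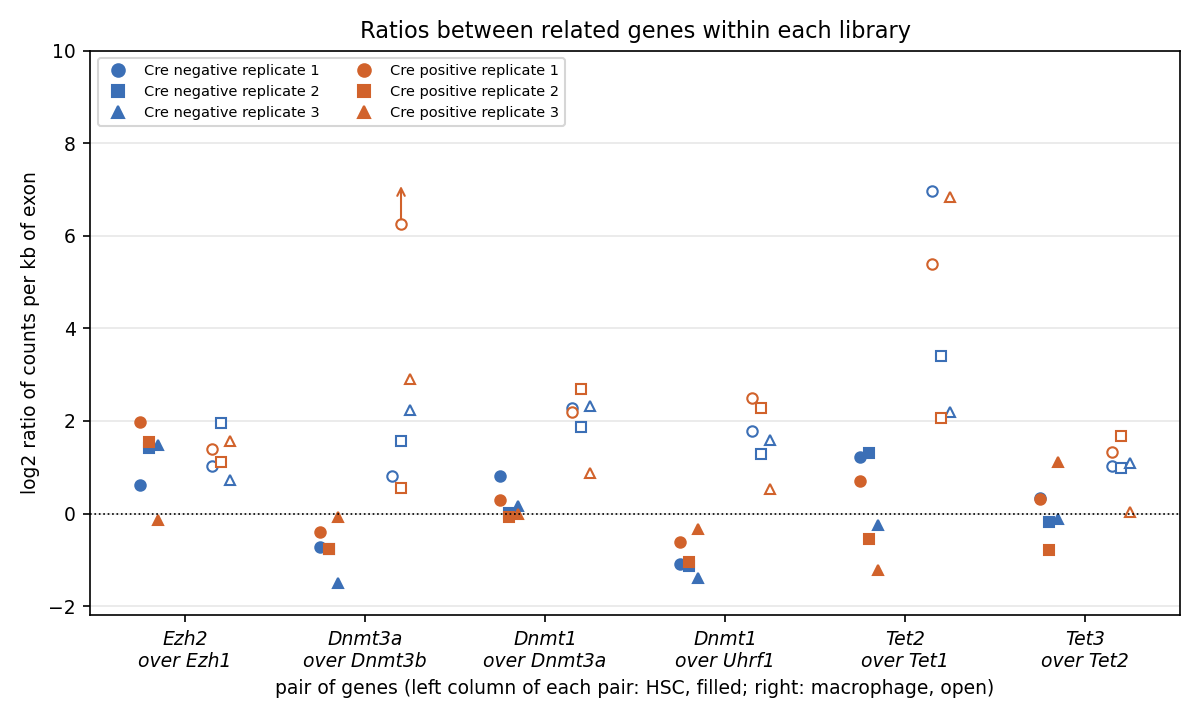
Log2 ratios of counts per kilobase of merged exon between related genes within each library, with HSC libraries filled and macrophage libraries open, colour for genotype and shape for replicate number. At these lengths the Dnmt3a over Dnmt3b ratio is below 0 in all 6 HSC libraries, 2 of which turn above 0 with main transcript lengths, and above 0 in all 6 macrophage libraries, where the arrow marks a lower bound, and Ezh2 over Ezh1 is above 0 in 11 of 12 libraries.

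Ezh2 (ENSMUSG00000029687, chr6:47530139-47595341, minus strand), the PRC2 enzyme of dividing cells, measured 94.0, 122 and 98.8 CPM in Cre negative HSC libraries and 108, 159 and 77.4 CPM in the ones with the Cre label. The labelled Cre positive libraries lay on both sides of the negative ones, with a log2 fold change of 0.13 ± 0.31 (95% interval -0.58 to 0.84). Macrophage levels were 139, 127 and 104 CPM without Cre and 135, 109.5 and 137 CPM with it, the narrowest relative spread among the 10 genes there. The log2 fold change was 0.04 ± 0.40 (95% interval -0.81 to 0.89).

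Ezh1 (ENSMUSG00000006920, chr11:101191115-101226463, minus strand), the PRC2 enzyme also found in resting cells, measured 68.6, 50.9 and 39.6 CPM in Cre negative HSC libraries and 30.7, 61.1 and 95.2 CPM in the ones with the Cre label. The lowest and the highest library both had the Cre label, and the log2 fold change was 0.23 ± 0.45 (95% interval -0.81 to 1.28). In macrophages it measured 75.8, 36.6 and 70.5 CPM without Cre and 56.9, 56.3 and 51.3 CPM with it, inside the range of the negative libraries. The log2 fold change was -0.15 ± 0.58 (95% interval -1.37 to 1.07).

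Ezh2 exceeded Ezh1 per kilobase of merged exon in 5 of 6 HSC libraries and in 6 of 6 macrophage libraries. The ratio was 1.53, 2.67 and 2.78 in Cre negative HSC libraries and 3.92, 2.90 and 0.905 in the ones with the Cre label. Replicate 3 with the Cre label was the exception, the library with the highest Ezh1 and the lowest Ezh2 level in that sort. Over the 6 HSC libraries the mean log2 ratio was 1.14 ± 0.77 (SD), a 2.21-fold ratio, with an exact two-sided sign-flip permutation p of 0.0625. In macrophages the ratio was 2.05, 3.86 and 1.65 without Cre and 2.65, 2.16 and 2.97 with it. The mean log2 ratio was 1.30 ± 0.44 (SD, n = 6), a 2.46-fold ratio, with an exact two-sided sign-flip permutation p of 0.03125, the smallest that 6 libraries allow. Adjusted over the 4 tests of this ratio by Benjamini-Hochberg, both values were 0.125. Of the summed level of both genes per kilobase, Ezh2 took 68.0 ± 11.9% in HSC libraries and 70.8 ± 6.11% in macrophages. The ratio was not separated by genotype: the mean log2 ratio differed by -0.05 in HSC libraries (exact permutation p = 1) and by 0.13 in macrophages (exact permutation p = 0.8), and 3 against 3 libraries cannot go below 0.1. The ratio depends on the length used: the merged exons of Ezh2 span 6678 bases and its main coding transcript 2787, against 7440 and 4193 bases for Ezh1. With the length of the main coding transcript, the HSC mean was 1.58 on the log2 scale, with an exact permutation p of 0.03125, and all 6 ratios were above 1 (1.22 to 5.29).

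The start regions of Ezh2 and Ezh1 are shown because they are the pair compared. That of Dnmt1 is shown because it is the other gene of the 10 with the E2F site form TTTGGCGC found in Ezh2. RefSeq promoters on GRCm38.p6, from 250 bases before to 50 bases after a start, were found for 10 of 10 genes, in 15 windows. Capitals mark matches, on either strand, to the E2F site forms TTTCCCGC and TTTGGCGC, the NF-Y box CCAAT and the GC box GGGCGG. E2F is the factor family of the G1/S transition, and NF-Y and the GC box binding proteins are general promoter factors. Other forms of the E2F site were not searched, so a window without a match may still hold one. Dnmt1 has 3 starts in the table, and the one shown was chosen after the matches were seen.
Ezh2 promoter (chr6:47594981-47595280, minus strand): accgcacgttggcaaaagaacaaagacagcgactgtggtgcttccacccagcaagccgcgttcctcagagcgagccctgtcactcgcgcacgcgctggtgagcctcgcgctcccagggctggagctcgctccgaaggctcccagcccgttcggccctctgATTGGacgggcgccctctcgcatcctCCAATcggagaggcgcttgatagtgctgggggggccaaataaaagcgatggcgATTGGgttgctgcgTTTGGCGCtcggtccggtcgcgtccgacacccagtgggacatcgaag
Ezh1 promoter (chr11:101226414-101226713, minus strand): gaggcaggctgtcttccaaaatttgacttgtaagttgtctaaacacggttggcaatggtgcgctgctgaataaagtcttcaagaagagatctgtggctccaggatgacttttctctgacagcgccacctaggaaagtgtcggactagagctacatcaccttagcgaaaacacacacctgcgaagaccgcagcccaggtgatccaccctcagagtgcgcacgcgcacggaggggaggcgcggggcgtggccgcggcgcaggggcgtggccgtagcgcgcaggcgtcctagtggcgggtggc
Dnmt1 promoter (chr9:20952574-20952873, minus strand): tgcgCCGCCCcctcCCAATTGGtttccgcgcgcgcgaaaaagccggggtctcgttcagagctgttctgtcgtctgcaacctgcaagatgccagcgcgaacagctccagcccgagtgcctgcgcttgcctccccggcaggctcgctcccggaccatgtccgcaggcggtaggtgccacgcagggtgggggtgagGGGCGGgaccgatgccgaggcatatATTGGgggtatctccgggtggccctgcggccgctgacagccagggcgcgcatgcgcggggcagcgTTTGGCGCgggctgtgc

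The form TTTGGCGC stood in the windows of Ezh2, beginning 3 bases after the start, and of Dnmt1, beginning 33 bases after it, and in no other window of the 10 genes. It was found in 0.514% of the 32851 promoters of this length, and TTTCCCGC, absent from the 15 windows, in 1.07%. The Ezh2 window held 3 NF-Y boxes and 0 GC boxes, and that of Dnmt1 held 3 NF-Y boxes, 2 of which overlap, and 2 GC boxes. Of all promoters, 37.4% held CCAAT and 35.7% GGGCGG. The Ezh1 window held none of the 4 motifs. All 3 windows were rich in CpG, with 31 in Ezh2, 23 in Ezh1 and 33 in Dnmt1 against a median of 7 over all promoters. A match describes letters only.

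Bmi1 (ENSMUSG00000026739, chr2:18677018-18686629, plus strand), the PRC1 subunit, measured 35.04, 27.7 and 27.7 CPM in Cre negative HSC libraries and 36.0, 60.7 and 0.437 CPM in the ones with the Cre label. Replicate 2 with the Cre label was the highest library and replicate 3 was nearly empty, with 32 reads where the other 5 libraries held 1706 to 4255. Its log2 fold change was 0.10 ± 1.17 (95% interval -2.61 to 2.81), 0.68 without replicate 3 with the Cre label and -0.73 without its replicate 2. In macrophages Bmi1 measured 26.9, 42.9 and 19.3 CPM without Cre and 0, 28.6 and 8.35 CPM with it. Cre positive replicate 1 had no read of it, as for Dnmt3b. Its log2 fold change was -1.26 ± 1.37 (95% interval -4.16 to 1.64), -0.75 without that library and -2.83 without Cre positive replicate 2.

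Such a drop in a single library was counted over all genes, as a level of at least 5 CPM in the other 5 libraries of a sort and of at most 1/20 of their lowest in the library itself. It was found for 1 to 18 genes in the Cre negative HSC libraries and for 29, 116 and 334 genes in the ones with the Cre label. The last of these counts, in replicate 3, was 3.61% of 9243 genes and held Bmi1. In macrophages 2 to 22 genes dropped out per library without Cre, and 390, 88 and 423 with it. The 390 in replicate 1 were 5.51% of 7080 genes and held Dnmt3b and Bmi1. Genes with reads numbered 14315 to 16021 in Cre negative HSC libraries and 12747 to 14386 in the ones with the Cre label, and 20882 to 35022 and 14655 to 20523 in macrophages, where depth differed as well. The cause of the single-library drops was not tested.

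**Figure D3:**
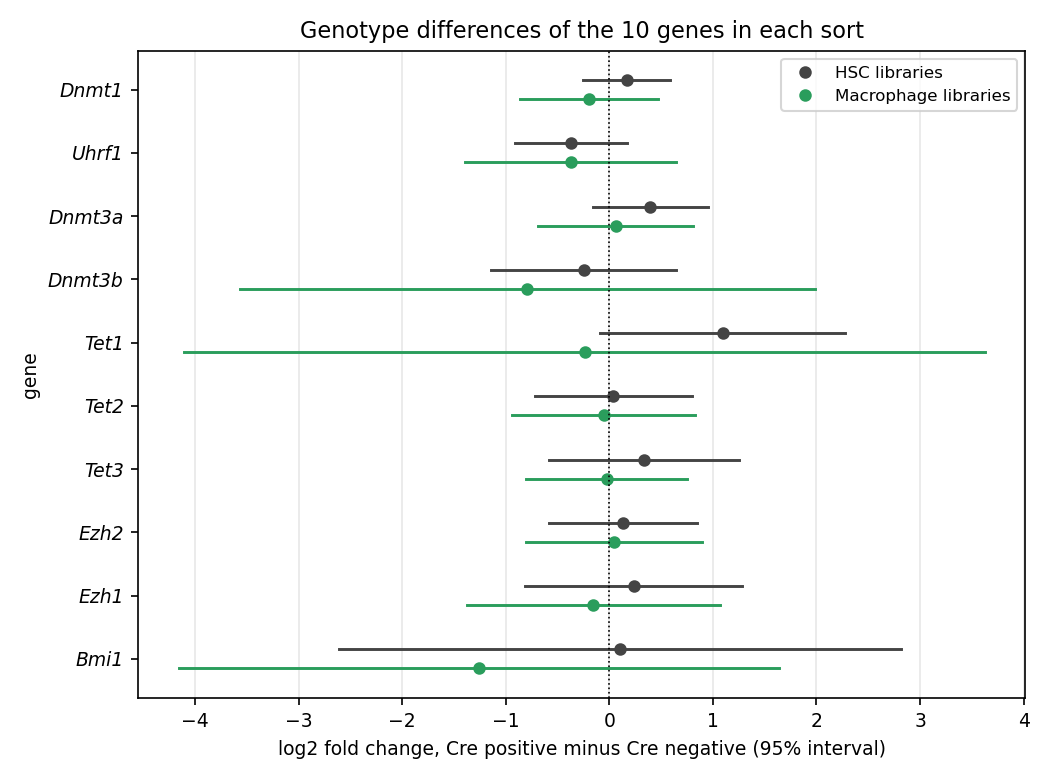
Log2 fold change of Cre positive minus Cre negative libraries with its 95% interval for each of the 10 genes, in black for HSC libraries and in green for macrophages, with a dotted line at no change. Every interval includes 0, and the widest are those of Bmi1 in both sorts and of Tet1 and Dnmt3b in macrophages.

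Whether the genotype difference itself differed between the sorts was tested as an interaction over the identifiers shared by the tables. The difference, macrophage minus HSC, was below 0 for all 10 genes, with a median of -0.39 on the log2 scale. The median of all 20128 genes in that fit was -0.21, so most genes lay below 0 as well. Relative to that median, Uhrf1 (-0.02), Ezh2 (-0.11) and Tet2 (-0.13) lay above and the other members below. With upper-quartile scaling the difference was above 0 for Tet2, Uhrf1 and Ezh2, and with library totals for Uhrf1. None of the 10 passed (adjusted p of 1 by edgeR), and 0 had an unadjusted p under 0.05, with the smallest, 0.368, for Dnmt1. Without macrophage Cre positive replicate 2 the difference for Tet1 was -3.75, with an unadjusted p of 0.0140 and an adjusted p of 0.356. Of all genes, 0.0696% passed and 8.62% had an unadjusted p under 0.05.

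Ranked by level per kilobase of merged exon, averaged over 6 libraries, the order in HSC libraries began with Uhrf1 at 45.9 ± 9.75 CPM per kilobase (SD), above Dnmt3b at 35.6 ± 13.7 in 6 of 6 libraries. Dnmt3b lay above Dnmt1 (23.6 ± 1.65) in 5, Dnmt1 above Dnmt3a (21.1 ± 4.72) in 4 and Dnmt3a above Ezh2 (16.45 ± 4.23) in 5 libraries. Ezh2 was above Bmi1 (7.87 ± 4.88) in 6 libraries, and Bmi1 and Ezh1 (7.75 ± 3.09) were not apart beyond their spread. Tet3 (3.77 ± 1.27), Tet2 (3.37 ± 0.685) and Tet1 (3.36 ± 1.92) came last, with no order that held in more than 3 of 6 libraries at these lengths. In macrophages Dnmt1, at 64.4 ± 13 CPM per kilobase, was above all others in 6 of 6 libraries. Uhrf1 (20.8 ± 6.15), Ezh2 (18.8 ± 2.25), Dnmt3a (15.8 ± 3.69) and Tet3 (15.7 ± 4.36) followed within each other's spread. Tet3 was above Ezh1 (7.78 ± 1.88) in 6 libraries, and Ezh1, Tet2 (7.63 ± 1.83), Bmi1 (5.29 ± 3.86) and Dnmt3b (4.54 ± 3.12) were again close. Tet1 was last, at 0.635 ± 0.650 CPM per kilobase. With main transcript lengths, an alternative added after the data were seen, 5 genes changed rank in each sort. In HSC libraries Ezh2 was then 3rd in place of 5th, with Dnmt3b above it in 2 of 6 libraries, and Dnmt1 was 5th in place of 3rd. Tet3 was 7th, above Bmi1 in 5 of 6 libraries, and Tet2 was above Tet1 in 5 of 6. In macrophages Ezh2 was 2nd in place of 3rd, Tet3 3rd in place of 5th and above Dnmt3a in 5 of 6 libraries, and Uhrf1 5th in place of 2nd.

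Of 26 partners of the DNA methylation enzymes (readers, recruiters, repair and cofactor genes), 24 were tested in each sort and 0 passed. In HSC libraries 12 had fold changes above 0 and 12 below, with a median of -0.04, and in macrophages 12 lay above the median of all genes and 12 below it. Ogt, the glycosyltransferase that binds Tet proteins, measured 166, 221 and 215 CPM in Cre negative HSC libraries and 383, 322 and 308 CPM in the ones with the Cre label, which did not overlap (unadjusted p = 0.00608, adjusted p = 0.689 by edgeR). Idh1, which makes the 2-oxoglutarate that Tet enzymes need, measured 201, 170 and 211 CPM without Cre and 139, 63.1 and 56.6 CPM with the Cre label in HSC libraries (unadjusted p = 0.0132). In macrophages Idh1 measured 89.7, 188 and 209 CPM without Cre and 57.9, 82.4 and 75.2 CPM with it (unadjusted p = 0.0190, adjusted p = 0.773 by edgeR). Its groups did not overlap in either sort, with log2 fold changes of -1.17 ± 0.37 and -1.17 ± 0.45. Cxxc1, a reader of unmethylated CpG, measured 112 ± 25.1 CPM (SD, n = 3) and 66.5 ± 27.2 CPM in HSC libraries. Gadd45a, tied to DNA demethylation and repair, measured 6.89, 6.54 and 19.6 CPM in Cre negative macrophages and had no read in the 3 Cre positive ones (adjusted p = 0.773 by edgeR). Taking 3 counts per library there, the group mean was at least 15.3-fold lower, a bound on means that single libraries need not reach. In HSC libraries it had reads in all 6, at 8.17 to 15.2 CPM. Cxxc5, a CpG-binding protein that recruits Tet2, measured 20.7 ± 9.78 CPM without Cre and 1.67 ± 2.90 CPM with it in macrophages.

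PRC2 partners numbered 12, of which 11 were tested in each sort and 0 passed, and 0 had an unadjusted p under 0.05. In HSC libraries 4 lay above 0 and 7 below, with a median of -0.22, and in macrophages 8 lay above the median of all genes and 3 below it. Mtf2, which guides PRC2 to CpG islands, measured 133 ± 11.1 CPM without Cre and 185 ± 51.9 CPM with the Cre label in HSC libraries. The histone-binding subunit Rbbp7 measured 704 ± 23.9 and 539 ± 129 CPM, and the cofactor Aebp2 25 ± 9.81 and 39.7 ± 4.89 CPM. In macrophages the core subunit Suz12 measured 60.6 ± 8.78 CPM without Cre and 30.2 ± 13.03 CPM with it, which did not overlap. Of all 17806 genes tested there, 2107 were lower without overlap and 405 higher. The cofactor Epop measured 3.97 ± 2.96 and 0.368 ± 0.372 CPM, and Phf1 4.66 ± 2.49 and 28.1 ± 48.6 CPM, the latter from a single library at 84.2 CPM.

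All 28 PRC1 partners were tested in both sorts and 0 passed. In HSC libraries 12 lay above 0 and 16 below, with a median of -0.26, and in macrophages 10 lay above the median of all genes and 18 below it. Auts2, of a PRC1 form tied to gene activation, measured 17.9 ± 7.26 CPM without Cre and 28.9, 33.25 and 74.8 CPM with the Cre label in HSC libraries (unadjusted p = 0.0379). Phc1 measured 22.1 ± 4.85 CPM without Cre and 28.1, 29.6 and 77.1 CPM with the label, and the corepressor Bcorl1 2.63 ± 3.44 CPM and 10.9, 5.89 and 30.75 CPM. Replicate 3 with the label was the highest library for all 3 genes and more than doubled each of the other 2 values of its group. In macrophages Kdm2b, which brings PRC1 to CpG islands, measured 61.7, 145 and 69.1 CPM without Cre and 49.7, 36.8 and 33.9 CPM with it (unadjusted p = 0.0483, adjusted p = 0.909 by edgeR). Scml2 measured 7.18, 4.43 and 19.0 CPM without Cre and had no read in the 3 Cre positive macrophage libraries. Taking 3 counts per library there, its group mean was at least 14.2-fold lower. Bcorl1 measured 76.2 ± 29.3 and 34.8 ± 19.2 CPM in macrophages.

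Of 8 genes that act against Polycomb, all were tested and 0 passed in either sort. In HSC libraries 5 lay above 0 and 3 below, with a median of 0.16. Asxl1, a cofactor of the histone deubiquitinase Bap1, measured 45.1, 34.0 and 45.8 CPM without Cre and 67.5, 71.0 and 135 CPM with the Cre label (unadjusted p = 0.0143, adjusted p = 0.689 by edgeR). Kdm6b, a demethylase of the mark that Ezh1 and Ezh2 write, measured 7.46, 8.08 and 4.86 CPM without Cre and 21.2, 8.93 and 55.9 CPM with the Cre label (unadjusted p = 0.0292). The groups of neither gene overlapped, and the highest library of each was replicate 3 with the Cre label. Bap1 itself measured 120.0 ± 11.3 and 83.8 ± 31.4 CPM. In macrophages 4 of the 8 lay above the median of all genes. The demethylase Kdm6a measured 61.2 ± 23.9 CPM without Cre and 106 ± 15.5 CPM with it, the deubiquitinase Usp16 88.3 ± 9.52 and 50.5 ± 14.1 CPM, and Kdm6b 66.3 ± 17.03 and 40.8 ± 20.3 CPM. The difference between sorts had an unadjusted p of 0.0206 for Kdm6b and 0.0429 for Asxl1, with adjusted p of 0.529 and 0.570 by edgeR.

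**Figure D4:**
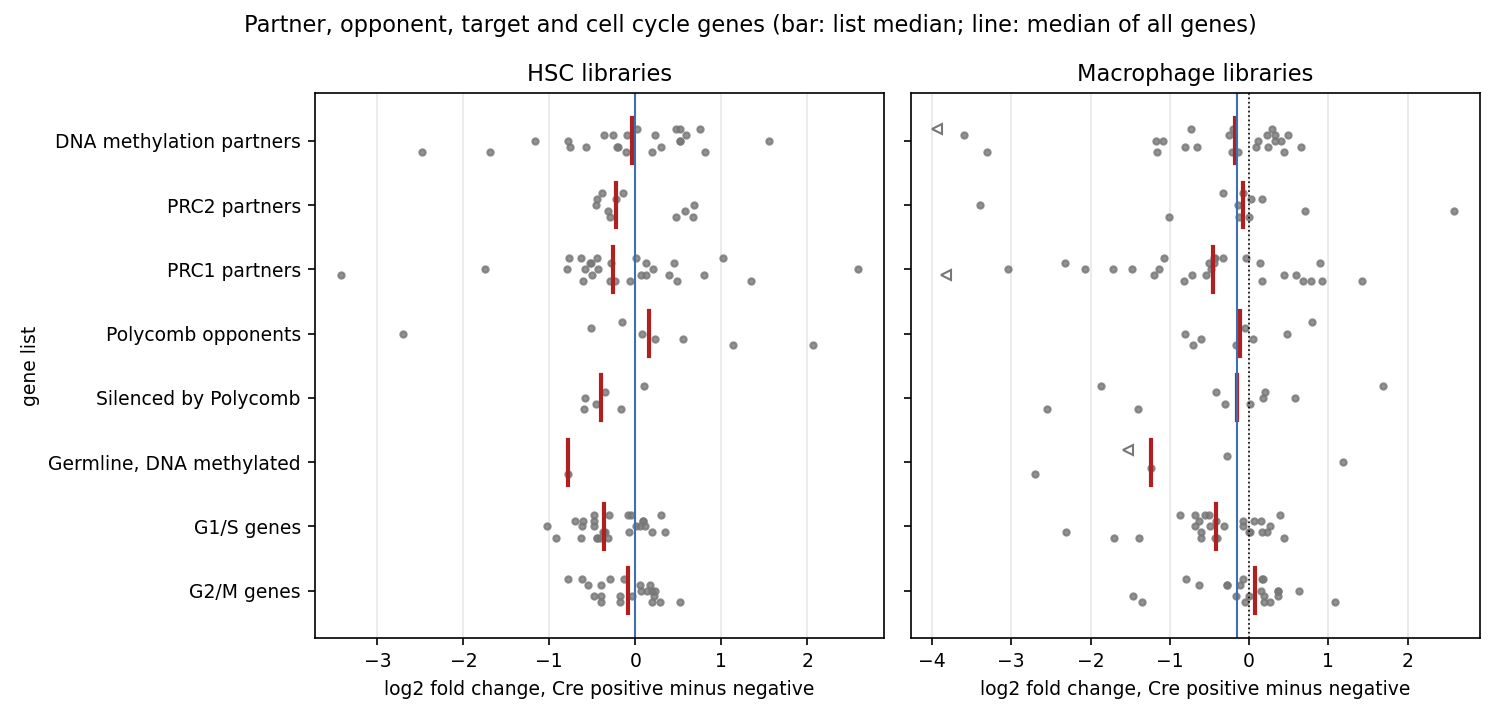
Log2 fold change of Cre positive minus Cre negative libraries for each tested gene of the 8 lists, with red bars at the list medians and a blue line at the median of all genes, HSC libraries left and macrophages right. Open triangles are genes with no read in any Cre positive library, drawn at the change against 3 counts per library, and list medians lie between -0.78 and 0.16 in HSC libraries and between -1.24 and 0.07 in macrophages.

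The genes whose profile over the 12 libraries lay nearest to that of Ezh2, by root mean square distance of log2(CPM + 1) centred within each sort, were Spag9 (0.18), Zfp777 (0.19) and Srsf7 (0.20). The distance of all 9953 genes compared had a median of 0.83, and Ezh2 itself varied around its sort means by 0.25. Nearest to Ezh1 were Zfp36l1 (0.26), Mrpl37 (0.27) and Col5a2 (0.27), with a median distance of 0.91 and a variation of Ezh1 itself of 0.44. Ezh2 and Ezh1 shared none of these genes. They were picked as the nearest of all genes compared, so their small distances follow from the choice and carry no test.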

How the data were processed

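RNA was measured in 12 libraries, 3 in each of 4 groups, made per the labels with SMART-Seq v4, an unstranded kit, each sort as its own single batch. The deposited values are whole-number counts of reads per gene, not normalized by the authors, with a table for each sort. For HSCs the submitters' processing notes name STAR 2.7.6a, featureCounts of Subread 2.0.1 and GRCm38 (mm10). For macrophages they name mm10 only, and the aligner and counter of that table, like the strand setting and treatment of multiply mapped reads of both, were not given in the sources used here. Reads of genes on the opposite strand that share exon bases with Dnmt3a (133 bases), Ezh2 (174) and Tet2 (43) therefore cannot be told apart from theirs.

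Names, positions and merged exon lengths were taken from GENCODE M21 (GRCm38). It names all but 127 of the HSC and 4907 of the macrophage identifiers. All rows stayed in the library totals. Of 250 names on the lists, 1 was not matched. Each table was fitted on its own with edgeR 4.0.16 in R 4.3.3 (filterByExpr, TMM, robust glmQLFit, glmQLFTest), with Benjamini-Hochberg adjustment over all genes tested and a threshold of 0.05. Intervals are 95% intervals from the fit. The interaction of genotype and sort was fitted over 32210 shared identifiers, of which 20128 were kept. Ratios per kilobase had 0.5 count added where a p is given. Fits were also run on simulated counts, and how many changed genes they recovered is not reported here. Depth and the CPM of 3 counts stand with the results. Replicates were compared pair by pair. Their counts differed beyond counting noise in each pair, with 51.15 to 831.5 as chi-square over degrees of freedom, and each library was counted as its own sample.

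The members and lists were chosen with earlier results of these data known. The text names the 10 members and Jag1. From each list it names every gene past the threshold and otherwise up to 3 with the smallest unadjusted p per sort. For Ezh1 and Ezh2 it names the 3 genes nearest in profile among genes averaging at least 5 CPM in each sort. Of the cell type markers it gives the first 2 of the HSC, macrophage, endothelial, hepatoblast and neutrophil lists as levels. Values of such genes in the other sort were added after the data were seen. Alternatives were DESeq2 1.42.0, other scalings, no filter, a replicate block, leaving out each library, other lengths and other added counts. Protein sequences were not used here.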

Additional observations from a re-analysis of the deposited data

How the results depend on the processing

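None of the 10 genes passed the threshold under any of the alternatives run: of 370 alternative values, 320 kept their direction against 0 and 50 turned it. The smallest adjusted p was 0.356. An unadjusted p under 0.05 was found for Tet1 alone, in 5 alternatives of its HSC change and 1 of its difference between sorts. The number of genes called in HSC libraries was 0 with edgeR and 129 with DESeq2 (25 higher), and 0 when leaving out any 1 library. In macrophages it was 0 with edgeR, 54 with DESeq2 (8 higher), 21 without the filter, 13 with the replicate block, and 1 to 34 without 1 library, the most without Cre positive replicate 3. For the difference between sorts 14 genes were called with TMM, 9 with upper-quartile scaling, 8 with library totals, 96 with the replicate block (6 higher), and 6 (without replicate 3 labelled Cre positive of the HSCs) to 210 (without Cre positive replicate 2 of the macrophages) when leaving out 1 library. The cause of these changes was not tested.

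The replicate numbers were not found to pair the samples: deviations of libraries with the same number correlated at 0.0107, 0.0116 and -0.0334 in HSCs and 0.0225, -0.0158 and 0.0268 in macrophages. With the replicate block the HSC change of Bmi1 was -0.93 and that of Tet1 1.15 (unadjusted p = 0.0252, adjusted p = 0.915 by edgeR), and the macrophage changes of Bmi1 and Dnmt3b were -2.31 and -1.41. Macrophage changes turned direction against 0 for Dnmt1 with library totals (0.0021), and for Dnmt3a (-0.010) and Ezh2 (-0.025) without the filter. They also turned for Tet2 (0.15, 0.090 and 0.13) and Tet3 (0.16, 0.12 and 0.15) with DESeq2, upper-quartile scaling and library totals, and for Ezh1 (0.037 and 0.033) with DESeq2 and library totals. The macrophage median of all genes moved too, from -0.16 to 0.04 with DESeq2, -0.00 with upper-quartile scaling, 0.05 with library totals, -1.15 without the filter and -0.72 with the replicate block. Relative to that median, Dnmt3a, Ezh2, Tet2 and Tet3 stayed above in each of these settings. Dnmt1 was below it in the main fit and with DESeq2, upper-quartile scaling and library totals. Without the filter (-0.27) and with the replicate block (-0.24) Dnmt1 was above it. Ezh1 was just above it in the main fit (-0.153 against -0.157) and below it with DESeq2, upper-quartile scaling and library totals. Without the filter and with the replicate block Ezh1 was above it. The difference between sorts turned for Tet2 (0.062), Uhrf1 (0.15) and Ezh2 (0.082) with upper-quartile scaling and for Uhrf1 (0.094) with library totals.

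Without 1 library, the HSC changes ranged, for the genes that turned direction, over Dnmt3b -0.55 to 0.18, Tet2 -0.11 to 0.23, Ezh1 -0.21 to 0.56, Ezh2 -0.18 to 0.35 and Bmi1 -0.73 to 0.68. Without 1 library, the macrophage changes ranged, for the genes that turned direction, over Dnmt3a -0.26 to 0.27, Tet1 -2.66 to 0.61, Tet2 -0.34 to 0.19, Tet3 -0.32 to 0.21, Ezh1 -0.43 to 0.037 and Ezh2 -0.074 to 0.14. Without 1 library, the differences between sorts ranged, for the genes that turned direction, over Dnmt3b -1.72 to 0.0056, Tet2 -0.34 to 0.19, Uhrf1 -0.45 to 0.18, Ezh1 -0.74 to 0.028 and Ezh2 -0.32 to 0.20.

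Ezh2 over Ezh1 in HSCs was 1.58 with the main transcript length (exact permutation p = 0.03125), and 0.98 to 1.401 without 1 library (exact permutation p 0.0625 to 0.125). In macrophages it was 1.17 to 1.41 without 1 library, where 5 libraries cannot go below 0.0625. Its genotype difference was -0.47 to 0.58 in HSCs and -0.13 to 0.49 in macrophages without 1 library. Depth limits the Cre positive macrophage libraries most, where 3 counts were worth 0.522 to 1.08 CPM.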

Other observations

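Genes that DNA methylation or Polycomb are known to keep silent were read as other groups. Of 16 germline genes known to be silenced by DNA methylation, 8 had no read in any HSC library and 1 passed the filter there, Ddx4, a germ cell helicase, at 4.64 to 37.2 CPM without Cre and 0 to 22.7 CPM with the Cre label. The 16 genes together took 0.000878% to 0.00445% of Cre negative HSC reads. In macrophages 5 were tested and 0 passed (edgeR). Tex101 measured 1.68 to 2.61 CPM without Cre and had no read in the 3 Cre positive libraries. Taking 3 counts per library there, its group mean was at least 2.88-fold lower. Ddx4 measured 4.16 ± 4.63 CPM (SD, n = 3) and 0.620 ± 1.07 CPM, and the cohesin subunit Smc1b 7.69 ± 7.46 and 17.4 ± 21.1 CPM.

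Of 14 genes known to be silenced by Polycomb in many tissues, 6 were tested in HSC libraries, 1 above 0 and 5 below, and 10 in macrophages, 5 above the median of all genes and 5 below it, with 0 past the threshold in either sort. The cell cycle inhibitor Cdkn1c measured 358 ± 35.5 CPM in Cre negative HSC libraries and 262 ± 44.1 CPM in the ones with the Cre label (unadjusted p = 0.0527, adjusted p = 0.784 by edgeR). Cdkn1a, another inhibitor, measured 45.3 ± 7.73 and 29.9 ± 14.2 CPM, and the transcription factor Gata4 213 ± 74.8 and 167 ± 29.8 CPM. In macrophages Gata6 measured 18.4 ± 11.8 and 5.01 ± 4.69 CPM, Pax5 2.95 ± 4.10 and 0.484 ± 0.466 CPM, and Cdkn1a 13.8 ± 2.15 and 5.18 ± 6.05 CPM.

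Of 22 genes of the G2/M phase, 0 passed in either sort, and their medians were -0.08 in HSC libraries and 0.07 in macrophages. In HSC libraries 10 lay above the median of all genes and 12 below it, and in macrophages 15 above and 7 below. Their summed share was 0.348% to 0.510% of HSC reads without Cre and 0.4075% to 0.461% with the Cre label. In macrophages it was 0.344% to 0.567% without Cre and 0.450% to 0.596% with it. The spindle protein Tpx2 measured 220 ± 9.58 CPM in Cre negative HSC libraries and 128 ± 19.9 CPM in the ones with the Cre label (unadjusted p = 0.00529, adjusted p = 0.689 by edgeR). Bub1b measured 163 ± 29.3 and 106 ± 32.2 CPM, and Mki67 221 ± 60.1 and 318 ± 57.0 CPM. In macrophages the kinase Aurka measured 70.7 ± 11.5 CPM without Cre and 27.6 ± 4.06 CPM with it (unadjusted p = 0.0458), Cdk1 129 ± 12.6 and 74.5 ± 29.2 CPM, and Ccnb1 46.2 ± 9.66 and 16.8 ± 11.5 CPM.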
